A study of Homo sapiens with 4 samples.

Results

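The genes described here are 4 fibroblast growth factors (FGF1, FGF2, FGF5 and FGF7), 3 of the receptors for this family (FGFR1, FGFR2 and FGFR3), hepatocyte growth factor (HGF), its receptor MET, and KITLG, the ligand of the receptor KIT, also called stem cell factor. They were taken by symbol from the deposited count table, where each has 1 row, and make up 10 of its 63241 genes. They were chosen by symbol and pathway, and by the measured counts of KITLG, which differed strongly between the compounds, so that difference is given as a description. RNA was sequenced from LX-2, an established human cell line of hepatic stellate origin; stellate cells form scar tissue in the liver. All cells were starved for 24 h in 0.5% serum, and 1 library was analysed for each of 4 groups: an untreated control, TGF-β at 20 ng/mL for 24 h, the same with BDS4 at 5 µM, and the same with RVX-208 at 5 µM. The column name of the TGF-β library mentions DMSO and that of the control does not. Vehicle and TGF-β therefore cannot be told apart in that comparison. The column names of the compound libraries do not mention DMSO either, so their vehicle is not known from these names. RVX-208 (apabetalone) inhibits BET proteins, readers of acetylated histones, with a preference for their second bromodomain. For BDS4 only a code name is given, and the study's title concerns covalent inhibitors of the first bromodomain.

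These ligands act on receptor tyrosine kinases. FGFs bind heparan sulfate and FGF receptors together and drive the RAS-ERK cascade, HGF is secreted as an inactive precursor and is cut before it activates MET, and KITLG is made as a membrane protein that can be shed and activates KIT. In the liver, quiescent stellate cells are a known source of HGF, while FGF2 and FGF receptors are known for supporting the growth of activated stellate cells and fibroblasts.

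Promoter sequence is shown for the pair of genes called higher with BDS4 than with TGF-β alone and for the gene called lower in every comparison of TGF-β or BDS4 reported below, because these 3 carry the largest differences among the 10 genes. Sequences are from RefSeq (GRCh38.p14), read 5′ to 3′ on the gene's strand and end before the transcription start. Capitals mark matches, on either strand, to a TATA box (TATAAA) or a GC box (GGGCGG). For KITLG, 30 bases are shown (chr12:88580487-88580516, minus strand), from 45 to 16 bases before the start. For FGFR3 (chr4:1793043-1793292, plus strand) and for the outermost of 4 annotated starts of FGF1 (chr5:142698071-142698320, minus strand) the 250 bases before the start are shown.
KITLG: aggcGGGCGGgaactgTATAAAagcgccgg
FGFR3: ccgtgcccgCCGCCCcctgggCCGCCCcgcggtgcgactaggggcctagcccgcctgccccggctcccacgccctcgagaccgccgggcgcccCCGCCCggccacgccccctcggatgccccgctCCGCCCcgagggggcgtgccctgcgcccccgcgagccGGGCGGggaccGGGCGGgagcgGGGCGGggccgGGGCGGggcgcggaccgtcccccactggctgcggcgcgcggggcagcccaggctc
FGF1: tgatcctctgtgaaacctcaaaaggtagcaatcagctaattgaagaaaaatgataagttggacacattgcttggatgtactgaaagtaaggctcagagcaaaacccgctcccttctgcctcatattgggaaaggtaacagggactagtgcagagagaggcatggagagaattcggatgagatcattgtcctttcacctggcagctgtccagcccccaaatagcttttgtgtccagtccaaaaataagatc

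The 3 stretches differ in composition. Over the 250 bases before the start, G and C make up 86.8% of the FGFR3 window, 69.2% of the KITLG window and 44.8% of the FGF1 window, against a median of 58.0% over 35116 promoter windows of the same length. FGFR3 has 8 GC box matches in its window and KITLG has 2, while the FGF1 window shown has 0. Of the other 3 FGF1 windows, 2 hold 1 GC box each, and 1 of these also holds an AP-1 match, 41 to 35 bases before its start. A GC box was found in 42.6% of all windows. KITLG also has 1 TATA box match, 29 to 24 bases before its start, and 10.7% of all windows hold this motif. The AP-1 letters TGACTCA or TGAGTCA and the CAGA box CAGACA, a SMAD-type motif, were searched on both strands as well and are found in 4.2% and 13.6% of all windows. Neither is in the KITLG or FGFR3 window or in the FGF1 window shown. FGF2, which was also called lower with BDS4, has a GC-rich window (75.2%) with 3 GC boxes. Of its 250 bases, 123 lie in annotated exons of FGF2. Whether composition goes with the direction of change was not tested. In the annotation used (GENCODE 29) a longer KITLG transcript starts upstream of the KITLG window and covers all of it. Which start of KITLG or FGF1 the cells used was not measured.

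Levels are given as scaled CPM, that is, counts per 1000000 after correction of the library total for composition. Counting intervals at the 95% level are in brackets. They cover counting error only, and with 1 library per group no difference could be compared with the spread between cultures. A difference was called where the ratio between 2 libraries reached 2 in either direction and the interval excluded 1. Library totals ran from 17022369 to 22503094 counts. Of the 10 genes, 7 reached 1 CPM in at least 1 library and were tested together with all other genes that did, and FGF7, FGFR2 and HGF did not. In these bulk libraries fewer expressing cells and less RNA per cell cannot be told apart.

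The libraries held fibroblast markers, with gaps. Of 15 stellate and fibroblast markers, 11 passed the same filter, and all 15 summed to 6598 CPM in the control, 10230 with TGF-β, 4840 with BDS4 and 8337 with RVX-208. LRAT, the vitamin A storage enzyme of quiescent stellate cells, had 0 counts in all 4 libraries, and DCN and DES had 0 counts in 3 of them. The 8 hepatocyte markers summed to between 1.72 and 3.90 CPM. The 6 cholangiocyte and epithelial markers, with EPCAM at no more than 4 counts in each library, summed to 287 CPM in the control, 558 with TGF-β, 135 with BDS4 and 351 with RVX-208. Endothelial markers summed to between 12.2 and 15.7 CPM, and macrophage and leukocyte markers to between 13.2 and 36.0 CPM. The share of mitochondrial ribosomal RNA was 0.903% with BDS4 and between 0.212% and 0.248% in the other libraries. Of the 11 fibroblast markers tested, 7 were called lower and 0 higher with BDS4 than with TGF-β alone. Of all genes tested, 17.7% were lower and 14.5% higher in this comparison. The part of RNA quality or of the marker levels in the BDS4 results was not tested.

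**Figure D1:**
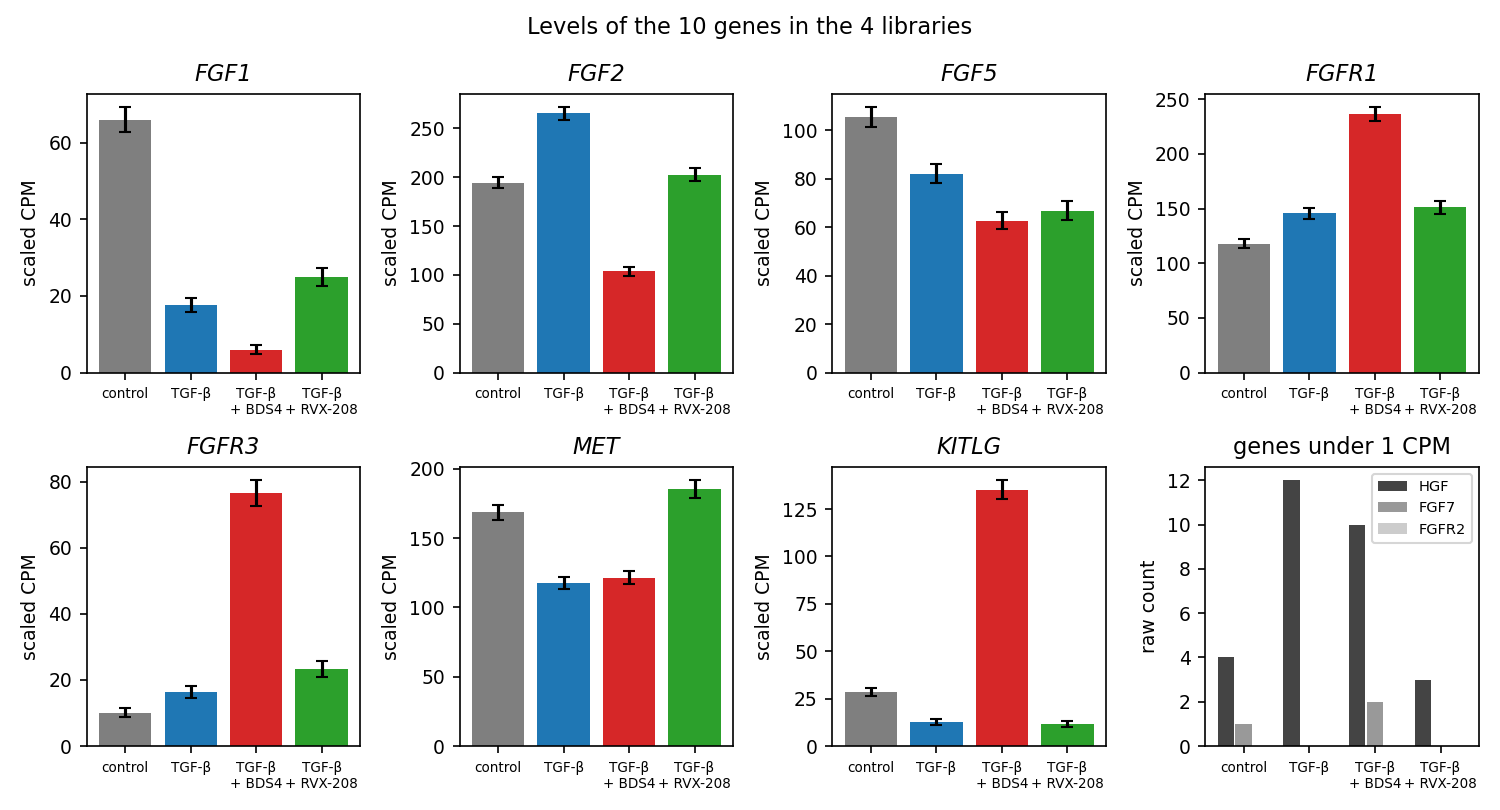
Levels of the 10 genes in the 4 libraries. Bars give scaled CPM (7 panels) or raw counts (last panel) in 1 library each, error bars 95% counting intervals; KITLG stands at 135 CPM with BDS4 and at 28.6 CPM or less in the other libraries, and FGF1 falls from 66.0 CPM in the control to 5.98 CPM with BDS4.

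Among the ligands of FGF receptors, FGF1 was lower in each treated library than in the control. FGF1 (GRCh38 chr5:142592178-142698070), a broadly acting family member that binds all FGF receptors, had 66.0 CPM in the control (62.8 to 69.3), 17.5 with TGF-β (15.8 to 19.4), 5.98 with BDS4 (4.97 to 7.14) and 24.9 with RVX-208 (22.6 to 27.4). No intervals overlapped, and the control was the highest library and BDS4 the lowest. The TGF-β library was 3.77-fold lower than the control (3.37 to 4.22), and the BDS4 library was a further 2.93-fold lower than TGF-β alone (2.38 to 3.62). With RVX-208, FGF1 stood 1.42-fold above TGF-β alone (1.23 to 1.63), under the 2-fold rule, and 2.65-fold below the control (2.38 to 2.96), which met it. With BDS4 it stood 11.03-fold below the control (9.17 to 13.4). Directly compared at the same dose and time, FGF1 was 4.16-fold lower with BDS4 than with RVX-208 (3.39 to 5.13).

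FGF2 (GRCh38 chr4:122826708-122898236), the basic fibroblast growth factor and a mitogen for fibroblasts, followed another course. Its level was 194 CPM in the control (188 to 200), 265 with TGF-β (258 to 272), 104 with BDS4 (99.2 to 108) and 203 with RVX-208 (196 to 210). The TGF-β library was the highest, BDS4 the lowest, and the intervals of the control and RVX-208 overlapped. The 1.37-fold difference between TGF-β and the control (1.31 to 1.42) was under the 2-fold rule. BDS4 was 2.56-fold lower than TGF-β alone (2.44 to 2.69) and was called. RVX-208 was 1.31-fold lower than TGF-β alone (1.25 to 1.37) and was not. Between the compounds FGF2 was 1.96-fold lower with BDS4 (1.85 to 2.07), just short of the rule, and met it when counts were scaled by library totals alone (log2 ratio -1.04) or with no filter on low counts (-1.003). FGF2 shares 804 exon bases, 11.9% of its own, with NUDT6 on the opposite strand. NUDT6 had between 100 and 151 counts per library against 2113 to 5857 for FGF2, and adding its counts changed no FGF2 call.

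FGF5 (GRCh38 chr4:80266599-80336680), known as a regulator of the hair cycle and expressed by fibroblasts, varied less. It had 105 CPM in the control (101 to 110), 82.0 with TGF-β (78.3 to 85.9), 62.7 with BDS4 (59.3 to 66.2) and 66.8 with RVX-208 (63.0 to 70.9). All treated libraries were below the control, and the intervals of the 2 compounds overlapped. No FGF5 ratio met the 2-fold rule, and BDS4 and RVX-208 differed by a ratio of 0.938 (0.865 to 1.02). Of FGF7 (GRCh38 chr15:49423096-49488775), the keratinocyte growth factor through which mesenchymal cells act on epithelium, the control held 1 count, BDS4 held 2, and TGF-β and RVX-208 held 0, with upper interval ends of 0.167 and 0.219 CPM. Its 8 near-identical pseudogene rows summed to between 2 and 8 counts per library, and FGF7 summed with them stayed under 1 CPM in each library.

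The receptors FGFR1 and FGFR3 both stood highest in the BDS4 library, and FGFR2 was not detected. FGFR3 (GRCh38 chr4:1793293-1808872), which in development restrains bone growth, had 10.1 CPM in the control (8.90 to 11.5), 16.3 with TGF-β (14.7 to 18.1), 76.5 with BDS4 (72.7 to 80.4) and 23.2 with RVX-208 (21.0 to 25.6). No intervals overlapped. With BDS4 it was 4.69-fold higher than with TGF-β alone (4.18 to 5.28), and with RVX-208 1.42-fold higher (1.23 to 1.65), which did not meet the rule. The direct ratio of BDS4 to RVX-208 was 3.29 (2.95 to 3.69). Against the control both compound libraries were called higher, by 7.55-fold with BDS4 (6.59 to 8.68) and by 2.29-fold with RVX-208 (1.95 to 2.70).

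FGFR1 (GRCh38 chr8:38400215-38468834), the receptor typical of mesenchymal cells, had 118 CPM in the control (114 to 122), 146 with TGF-β (141 to 151), 236 with BDS4 (230 to 243) and 151 with RVX-208 (145 to 157). The TGF-β and RVX-208 intervals overlapped, and BDS4 stood above all others. BDS4 was 1.62-fold above TGF-β alone (1.55 to 1.70) and 1.56-fold above RVX-208 (1.49 to 1.64), both under the rule. The ratio of BDS4 to the control was 2.003 (1.91 to 2.10) and met the rule by a narrow margin, a call that ended when counts were scaled by library totals alone (log2 ratio 0.83) and when no filter on low counts was used (0.93). FGFR2 (GRCh38 chr10:121478334-121598458), whose IIIb form is the epithelial receptor for FGF7, had 0 counts in all 4 libraries. The upper ends of its counting intervals lay between 0.155 and 0.219 CPM.

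MET was well expressed while HGF was close to the detection limit. MET (GRCh38 chr7:116672390-116798386) had 168 CPM in the control (163 to 174), 117 with TGF-β (113 to 122), 121 with BDS4 (117 to 126) and 185 with RVX-208 (179 to 192). The libraries fell into a higher pair, control and RVX-208, and a lower pair, TGF-β and BDS4, whose intervals overlapped. RVX-208 was 1.58-fold above TGF-β alone (1.496 to 1.66) and BDS4 differed from TGF-β by a ratio of 1.03 (0.978 to 1.09). MET was 1.53-fold lower with BDS4 than with RVX-208 (1.45 to 1.61), and no MET ratio met the 2-fold rule. HGF (GRCh38 chr7:81699008-81770438) had 4 counts in the control, 12 with TGF-β, 10 with BDS4 and 3 with RVX-208, all under 1 CPM. The interval of each HGF ratio included 1, for example 0.983 to 13.8 for TGF-β against control, so no difference in HGF was detectable at this depth.

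KITLG had its highest level with BDS4. The gene (GRCh38 chr12:88492793-88580851) stood at 28.6 CPM in the control (26.5 to 30.8), 12.8 with TGF-β (11.4 to 14.4), 135 with BDS4 (130 to 140) and 11.6 with RVX-208 (10.0 to 13.3). The TGF-β and RVX-208 intervals overlapped, the control lay above both, and BDS4 lay above the control. TGF-β was 2.23-fold lower than the control (1.94 to 2.57), a call by the 2-fold rule. BDS4 was 10.5-fold higher than TGF-β alone (9.32 to 12.0) and 4.73-fold higher than the control (4.35 to 5.15). RVX-208 gave a ratio to TGF-β alone of 0.904 (0.749 to 1.09), which did not meet the rule, and it was 2.47-fold lower than the control (2.10 to 2.91). The difference for which KITLG was chosen, BDS4 against RVX-208 at the same dose and time, was 11.7-fold (10.1 to 13.6), from 195 counts to 2755. Its exons share 80 bases with an antisense gene that had at most 4 counts in any library.

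**Figure D2:**
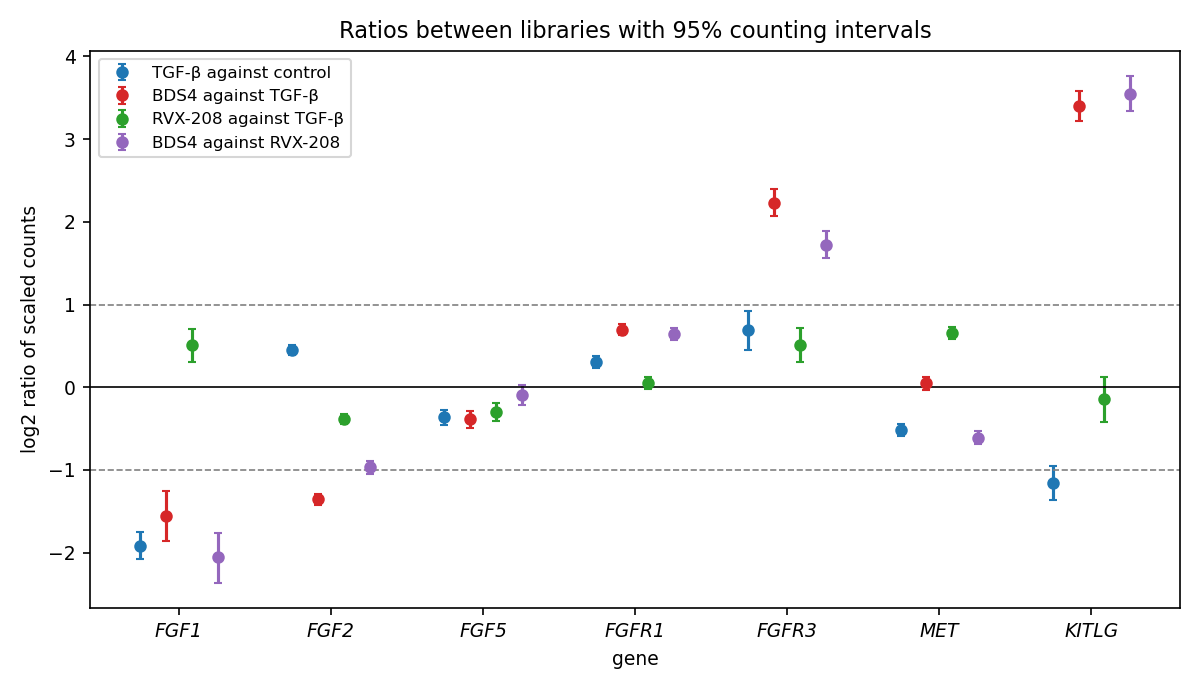
Log2 ratios of the 7 genes that passed the filter in 4 comparisons, with 95% counting intervals; dashed lines mark 2-fold. KITLG and FGFR3 lie above the upper line in both BDS4 comparisons, FGF1 below the lower line in these and in TGF-β against control, and no gene passes a line for RVX-208 against TGF-β.

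The counts of called genes are to be read beside those of all 16099 genes tested. For TGF-β against control, 2 of the 7 were lower (FGF1 and KITLG) and 0 higher, where 9.67% of all genes were called, 4.35% lower and 5.32% higher. For BDS4 against TGF-β alone, 2 were higher (FGFR3 and KITLG) and 2 lower (FGF1 and FGF2), where 32.2% of all genes were called, 14.5% higher and 17.7% lower. For RVX-208 against TGF-β alone, 0 of the 7 were called, where 8.17% of all genes were, 2.94% higher and 5.23% lower. Between BDS4 and RVX-208, 2 were higher with BDS4 and 1 lower, where 24.8% of all genes were called, 11.7% higher and 13.1% lower, and this contrast chose KITLG. For BDS4 against the control, 3 were higher (FGFR1, FGFR3 and KITLG) and 1 lower (FGF1), where 33.1% of all genes were called, 14.9% higher and 18.2% lower. For RVX-208 against the control, 1 was higher (FGFR3) and 2 lower (FGF1 and KITLG), where 12.2% of all genes were called, 5.39% higher and 6.86% lower. The shares of members lie above the background in 5 comparisons and below it in 1, over only 7 genes, and nothing is read from this. Each library enters 3 of the 6 comparisons, so they are not independent. The KITLG counts with BDS4 and with RVX-208, by which it was chosen, enter every comparison except TGF-β against control.

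Levels of different genes were compared per 1000 bases of merged exons, since a long gene collects more fragments. In the control the order was FGF2 (28.6 CPM per 1000 bases), MET (23.9), FGF5 (17.6), FGF1 (12.5), FGFR1 (8.52), KITLG (4.6) and FGFR3 (2.09). FGF2 and MET also led with TGF-β and with RVX-208. With BDS4 the order began with KITLG (21.8 CPM per 1000 bases), followed by MET (17.2), FGFR1 (17.1), FGFR3 (15.8), FGF2 (15.3), FGF5 (10.4) and FGF1 (1.13). In that library MET and FGFR1, and likewise FGFR3 and FGF2, did not differ beyond counting error. KITLG stood sixth of the 7 in the control and first with BDS4 on this scale. FGFR3, at 2.09 CPM per 1000 bases in the control, was the lowest of the 7 there.

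The deposited FPKM values order some of these genes otherwise, because they use longer gene lengths. For FGFR1 they imply 64162 bases, where the merged exons of its 43 annotated transcripts cover 13842, and the control FPKM of FGFR1 was 1.95 against 3.19 for KITLG. For KITLG the implied length was 9505 bases against 6205. By deposited FPKM, KITLG stood above FGFR1 in the control and was level with MET in the BDS4 library (13.41 against 13.37). The ratios between libraries do not depend on these lengths.

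Other genes of these pathways were followed in 6 lists. Of 18 further genes of the FGF family 5 reached 1 CPM, as did 16099 of all 63241 genes. FGF9 and FGF18, ligands active in lung and skeletal development, were higher with BDS4 than with TGF-β alone, FGF9 at 1.81 CPM against 0.136 (37 against 3 counts) and FGF18 at 4.17 against 0.951. FGF9 reached 1 CPM only in the BDS4 library and was tested through that value. FGF17 was lower, at 0.932 CPM against 2.08. FGF13 is an intracellular family member that does not act through FGF receptors. It was higher with TGF-β than in the control (1.27 against 0.544 CPM, 28 against 13 counts). It was lower with RVX-208 than with TGF-β (0.594 CPM, 10 counts, interval of the ratio 0.203 to 0.994). FGF13 reached 1 CPM only in the TGF-β library and was tested through that value. With BDS4 against TGF-β alone, 2 of the 5 were higher and 1 lower, where 32.2% of all genes were called. The median log2 ratio of the 5 genes was -0.07 in that comparison, against -0.01 over all genes tested.

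The receptors outside the members and the surface proteins that present FGFs moved in both directions. Of 12 tested, 1 was higher with TGF-β (SDC3) and 0 lower, where 9.67% of all genes were called. With BDS4 against TGF-β alone 3 were higher and 1 lower (median log2 ratio -0.07), where 32.2% of all genes were called. SDC2, a heparan sulfate proteoglycan of mesenchymal cells, had 148 CPM with BDS4 against 42.8, whereas SDC1, its relative best known from epithelium, had 141 against 459. FGFBP3, which releases FGFs from matrix, and IL17RD, an inhibitor of FGF signalling, were the other two called higher. RVX-208 had 0 higher and 2 lower, FLRT3 and GPC1, where 8.17% of all genes were called. FLRT3 had 3 counts with RVX-208 against 15 with TGF-β alone, and reached 1 CPM only in the BDS4 library. GPC1, a glypican that binds FGF2, stood at 70.6 CPM against 176 with TGF-β alone, and at 167 with BDS4. FGFR4 stood between 9.09 and 12.3 CPM in the 4 libraries, and the decoy-like receptor FGFRL1 between 63.8 and 72.8 CPM, and neither was called in any comparison.

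Enzymes that build or trim heparan sulfate, the co-receptor of FGFs, had 4 of 15 higher and 0 lower with TGF-β, among them SULF2, which removes sulfate groups (11.6 CPM against 2.22 in the control), and XYLT1, which starts the chains (42.6 against 11.5). Of all genes tested, 9.67% were called with TGF-β against the control, 5.32% higher and 4.35% lower. With BDS4 against TGF-β alone, 4 of the 15 were lower and 3 higher (median log2 ratio -0.27), where 32.2% of all genes were called. NDST1, which begins sulfation of the chains, had 18.4 CPM with BDS4 against 315 with TGF-β alone and 205 with RVX-208. HS6ST1, which adds 6-O-sulfate, had 130 CPM with BDS4 against 33.8. With RVX-208 against TGF-β alone, 1 gene was called, NDST2, which was higher, where 8.17% of all genes were called.

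In the list of HGF and KITLG processing and other receptors, 10 of 14 were tested. KIT, the receptor of KITLG, was called lower with TGF-β than in the control (16 against 57 counts, 0.725 against 2.39 CPM) and higher with BDS4 than with TGF-β alone (85 counts, 4.17 CPM). RVX-208 had 12 counts of KIT (0.713 CPM). These are low levels. For both KIT and KITLG the order was BDS4, control, and then TGF-β and RVX-208, whose ratio had an interval that included 1. With BDS4 against the control, KITLG was called at 4.73-fold. KIT was not called there, at 1.75-fold (1.23 to 2.49). PLAU, the urokinase that can cut the HGF precursor, had 86.0 CPM in the control, 230 with TGF-β, 12.8 with BDS4 and 268 with RVX-208. PLAT, the tissue plasminogen activator, had 432 CPM with BDS4 against 192 with TGF-β alone. SPINT2, an inhibitor of the proteases that activate HGF, had 4 counts with BDS4 against 28. With BDS4 against TGF-β alone, 3 of the 10 were higher and 3 lower (median log2 ratio 0.47), where 32.2% of all genes were called.

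The intracellular adaptors and the RAS-ERK core numbered 29 genes, all of them tested. Of these, 0 were called with TGF-β against the control and 0 with RVX-208 against TGF-β alone (median log2 ratios 0.01 and 0.02). Of all genes tested, 9.67% and 8.17% were called in these comparisons. With BDS4 against TGF-β alone, 2 were higher (PIK3R1 and MAP2K1) and 4 lower (SRC, MAPK3, GAB2 and FRS3), a comparison in which 32.2% of all genes were called. The 2 higher became 1 when counts were scaled by library totals alone. MAPK3, which encodes ERK1, had 18.1 CPM with BDS4 against 47.3 with TGF-β alone, and the kinase gene SRC had 30.4 against 113.

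Transcripts that ERK activity is known to induce, many of which feed back on the cascade, had 7 of 17 higher and 0 lower with TGF-β (median log2 ratio 0.58, against -0.01 over all genes). Of all genes tested, 5.32% were higher and 4.35% lower with TGF-β than in the control. With BDS4 against TGF-β alone, 6 of the 17 were higher and 2 lower (median 0.25), where 32.2% of all genes were called. DUSP6, the ERK phosphatase, had 27.9 CPM in the control, 87.9 with TGF-β, 999 with BDS4 and 143 with RVX-208. EGR1, an immediate early transcription factor, had 37.4, 104, 474 and 158 CPM in the same order. The pair called lower with BDS4 was CCND1, which encodes cyclin D1 (360 CPM against 1280), and SPRED3 (4.27 against 12.6). With RVX-208 0 were higher and 1 was lower, SPRY1, an inhibitor of receptor tyrosine kinase signalling, at 10 counts against 44. Of all genes tested, 8.17% were called with RVX-208 against TGF-β alone.

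**Figure D3:**
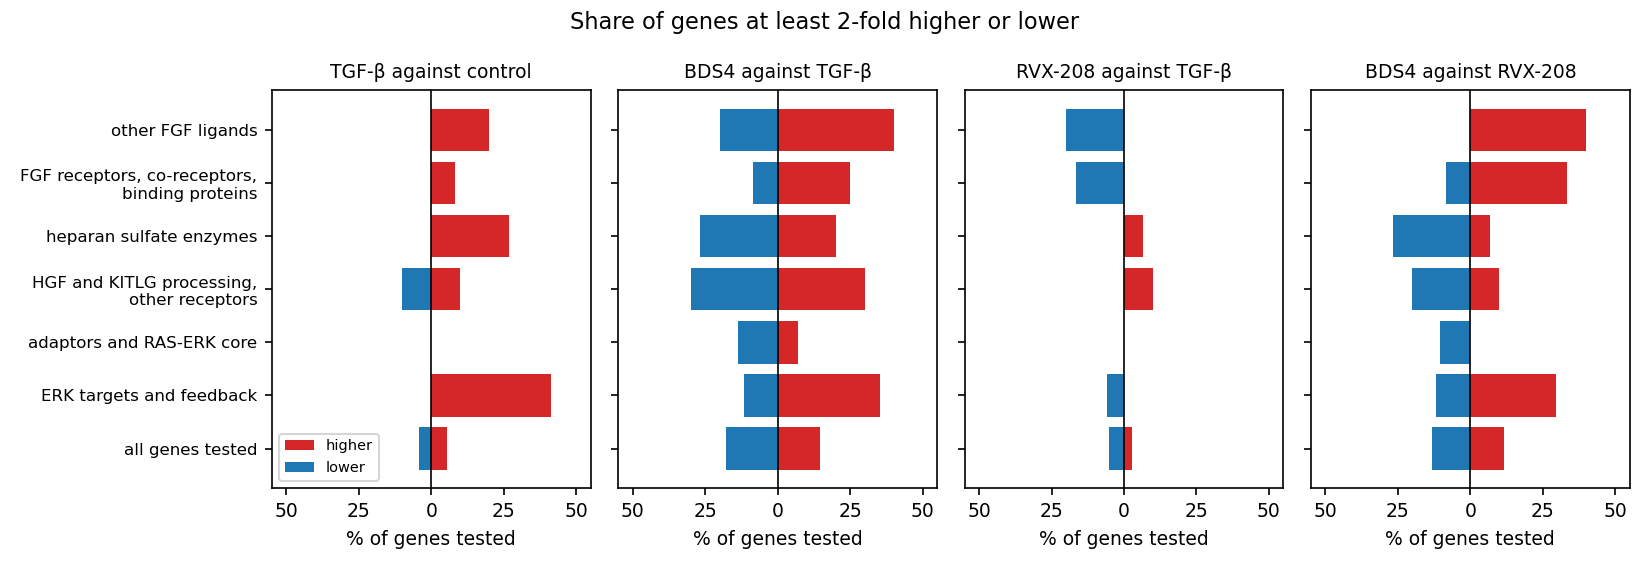
Share of tested genes at least 2-fold higher (red) or lower (blue) in each of 6 lists and among all genes tested, for 4 comparisons; the axis is a percentage in both directions. No bar is drawn for the RAS-ERK core with TGF-β or RVX-208, where 0 of 29 genes were called. Of all genes tested, 9.67% and 8.17% were called there.

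The genes whose pattern over the 4 libraries lay nearest to that of KITLG were sought among 10900 named genes that reached 10 CPM in any library, by the Euclidean distance of log2(CPM + 0.5) centred on each gene's mean. The nearest were the lipoxygenase-family gene ALOXE3 (distance 0.36), the muscarinic receptor gene CHRM3 (0.55), the cystine transporter gene SLC7A11 (0.55), the thioredoxin reductase gene TXNRD1 (0.65) and the transcription factor gene GRHL1 (0.75). ALOXE3 had 2.85 CPM in the control, 0.815 with TGF-β, 10.8 with BDS4 and 0.832 with RVX-208. SLC7A11 had 81.5, 56.6, 424 and 52.3 CPM in the same order. ALOXE3, CHRM3 and GRHL1 reached 10 CPM only in the BDS4 library and so entered the search through that value. That the 5 genes peak with BDS4 follows from the search itself. The likeness rests on 4 libraries that all these genes share, and is given as a description.

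**Figure D4:**
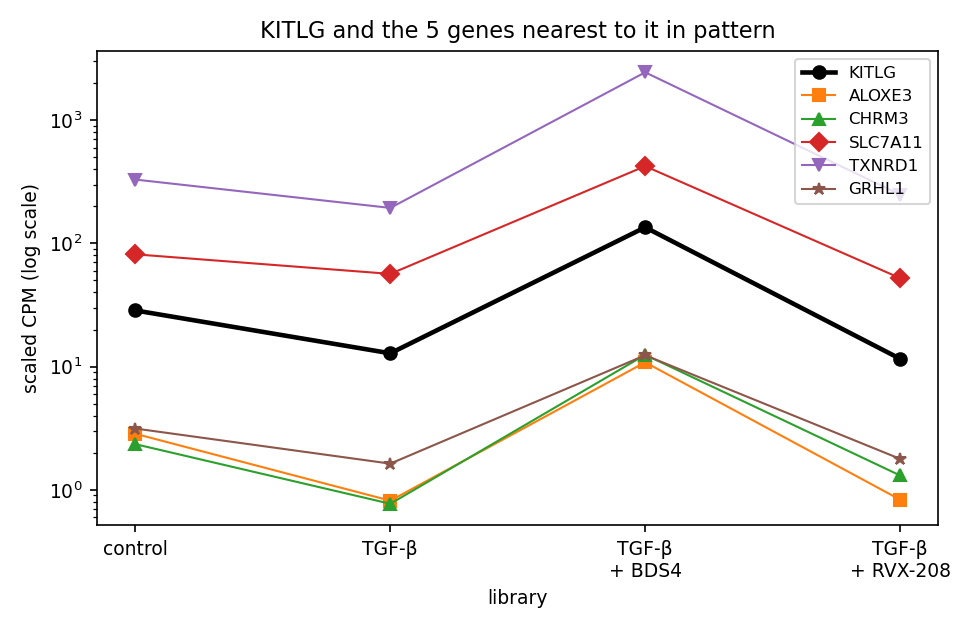
Scaled CPM (log axis) of KITLG (black) and the 5 genes nearest to it in pattern, in the 4 libraries; lines only join the points of a gene. Each gene is highest with BDS4, where KITLG stands at 135 CPM and TXNRD1 at 2449 CPM.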

How the data were processed

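Whole-number counts per gene were deposited by the authors, without normalization. FPKM values in the same table were made with StringTie 1.3.0, per the series' design text, and the deposited FPKM served only for levels between genes. GRCh38, TopHat2 2.0.6 and CASAVA 1.8 are named in the submitters' processing notes. The sources used here do not name the counting program, its annotation or its strand setting. Columns were matched to groups through each sample's description. Their names end in numbers, and whether these mark replicate cultures is not stated. Counts were scaled by TMM (edgeR 4.0.16, R 4.3.3). The 16099 genes that reached 1 CPM in any library were tested. Ratios have 95% conditional exact (Clopper-Pearson) intervals, and medians use log2 ratios with a prior count of 2. Totals of 17022369 to 22503094 counts put a floor of 3 counts at 0.126 to 0.178 CPM. Gene lengths and overlaps came from GENCODE 29, which holds 58228 of 63241 genes. RefSeq promoter windows were found for 9 of the 10 genes. The method was tested on simulated data with counting error only, so that test does not cover the spread between cultures. Alternatives were DESeq2 1.42.0 size factors, total counts, other filters and fold thresholds, and counts summed with overlapping genes. The members and lists were chosen with earlier results of these data known. Named genes are the members, up to 3 called genes per list and comparison by size of ratio, the 5 genes nearest to KITLG, and genes that overlap a member. A few more from the lists were picked with their values known.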

Additional observations from a re-analysis of the deposited data

How the results depend on the processing

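No paired analysis was possible because each group has 1 library, and for the same reason no replicate could be left out. The counts of called members under DESeq2 size factors, total-count scaling, no filter, a filter at 5 CPM and, added after the data were seen, library totals without mitochondrial genes stayed within 1.5 times the main count in all 6 comparisons. With a fold threshold of 3, the called members became 1 for TGF-β against control, 2 for BDS4 against TGF-β and 0 for RVX-208 against control. With a threshold of 1.5 they became 1 for RVX-208 against TGF-β (MET) and 6 for BDS4 against RVX-208. Scaling by totals lowers all log2 ratios of BDS4 against control by 0.17 and changes the share of higher genes among all calls from 45.03% to 34.9%. It ended the FGFR1 call in that comparison (log2 ratio 0.83) and made FGF2 a call there (-1.07) and between the compounds (-1.04). With no filter, the scaling factors shift and the FGFR1 call ended too (0.93), while FGF2 became a call between the compounds (-1.003). The other 39 member ratios kept their side of the threshold under total-count scaling, and the other 40 with no filter. All 42 did so under DESeq2 size factors. The KITLG ratio of BDS4 to RVX-208 kept its call under every scaling. Total calls per list stayed within 1.5 times, but under total-count scaling some counts of higher genes did not. In the RAS-ERK core they went from 2 to 1 for BDS4 against TGF-β and from 2 to 0 against control. Among heparan sulfate enzymes they went from 1 to 0 between the compounds. In the list of HGF and KITLG processing they went from 2 to 1 for BDS4 against control. FGF7 summed with its pseudogene rows stayed under the filter, so no ratio was computed. Depth limits HGF, FGF7, FGFR2, KIT, FGF9, FGF13, FLRT3, SPRY1 and SPINT2.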
